A study of Mus musculus with 4 samples.

Results

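Hepcidin (Hamp) and 4 further genes of iron, copper and heme handling were followed in mouse liver: the transferrin receptor gene Tfrc, the metalloreductase gene Steap4, the ceruloplasmin gene Cp and the hemopexin gene Hpx. They were taken as a named set from the features annotated to exactly 1 gene symbol, with the probes of a gene averaged. All 5 were present among 16504 genes, each with 1 probe. The RNA came from livers of polygenic obese mice at day 14 of a feeding trial, in which treated mice were fed conjugated linoleic acid (CLA), a name for isomers of linoleic acid with neighbouring double bonds, and control mice were fed linoleic acid itself (LA). Pools of 5 or 4 samples were made for each diet, and each of 4 arrays read in 2 dyes carried 1 pool per diet. The CLA pool was labelled with Cy5 on arrays 1 and 2, and with Cy3 on arrays 3 and 4, where the dyes were swapped. The obese mice had no lean counterpart here, the CLA isomers were not given, and pooling hid the spread between animals. Whether any pool was used on more than 1 array is not stated in the labels, so every p-value measures only spread between arrays, which may be technical. In the fits over all genes that spread is the gap between arrays of the same dye labelling, joined with a variance shared over all genes. In the comparisons of Hamp with the other genes it is the spread over all 4 arrays.

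Hepcidin is a peptide hormone made by hepatocytes that binds the iron exporter ferroportin on macrophages and gut cells, leads to its breakdown and so lowers iron in blood. Iron stores raise Hamp through bone morphogenetic protein (BMP) signals and SMAD factors, and inflammation raises it through interleukin-6 and STAT3. The other 4 proteins stand at different points of metal traffic. The transferrin receptor carries iron-loaded transferrin into cells. Steap4 reduces iron and copper and is known as an inflammation-responsive gene. Ceruloplasmin is a copper-bearing plasma oxidase of iron, and hemopexin is a plasma protein that binds free heme. Cp, Hpx, Steap4 and Hamp also belong to the acute phase genes, whose liver output changes in inflammation.

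The stretches of DNA just before the start sites of Hamp, its neighbouring paralog Hamp2 and Steap4 are shown here. Hamp and Steap4 were taken because they gave the largest ratios of the set, in opposite directions. Hamp2 is set beside Hamp for comparison. An array probe for Hamp may also bind Hamp2 RNA, which these stretches cannot show. Each line gives the 250 bases before the start site, 5′ to 3′, from RefSeq on build GRCm38.p6. These are chr7:30944030-30944279 on the minus strand for Hamp, chr7:30924182-30924431 on the minus strand for Hamp2 and chr5:7960222-7960471 on the plus strand for Steap4. Capitals mark matches to 3 motifs: GGCGCC, the core known from BMP-responsive elements; TTCNNNGAA, the spaced palindrome that STAT factors bind; and TTGCNNAA, a C/EBP-type sequence.
Hamp: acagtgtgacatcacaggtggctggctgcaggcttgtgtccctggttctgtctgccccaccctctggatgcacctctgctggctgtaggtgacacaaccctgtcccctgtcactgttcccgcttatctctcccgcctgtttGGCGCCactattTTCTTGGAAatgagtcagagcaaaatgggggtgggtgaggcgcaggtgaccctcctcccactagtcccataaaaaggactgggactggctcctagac
Hamp2: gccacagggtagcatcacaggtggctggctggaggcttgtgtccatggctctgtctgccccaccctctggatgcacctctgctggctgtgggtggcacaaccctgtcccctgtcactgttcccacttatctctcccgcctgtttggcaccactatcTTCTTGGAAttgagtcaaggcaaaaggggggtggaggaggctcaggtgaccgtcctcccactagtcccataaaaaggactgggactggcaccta
Steap4: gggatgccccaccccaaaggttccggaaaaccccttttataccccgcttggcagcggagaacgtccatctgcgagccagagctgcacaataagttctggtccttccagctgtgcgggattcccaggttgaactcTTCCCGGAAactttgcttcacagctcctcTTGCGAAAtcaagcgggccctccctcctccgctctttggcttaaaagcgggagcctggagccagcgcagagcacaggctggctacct

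The Hamp window held GGCGCC beginning at base -109 from the start and TTCTTGGAA beginning at base -97. The Hamp2 window held TTCTTGGAA beginning at base -94 and no GGCGCC, although the 2 stretches were identical at 227 of 247 aligned bases (91.9%). Steap4 held TTCCCGGAA at base -116 and TTGCGAAA at base -87. Among all 32851 windows of 300 bases (250 before and 50 after a start), read on both strands, 11.9% held GGCGCC, 8.3% TTCNNNGAA and 10.8% TTGCNNAA, with no overlap between the matches shown here. Tfrc held GGCGCC in 1 of its 2 windows. Cp in 1 of 2 windows and Hpx in its only window held TTGCNNAA. The arrays did not measure binding at any of these letters, and a match is a description only. Hamp2 was not measured as a gene of its own, since no feature was annotated to it alone. The share of the Hamp signal that may come from Hamp2 was not tested.

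The deposited values were ratios of the array's dyes on a log scale, taken here as log10 and multiplied by 3.32 to give log2; if the base were 2, every log2 value would be smaller by that factor. Their direction is not given in the sources used here. Both a sign-keeping and a sign-changing part were therefore computed for every gene. The sign-keeping part is the mean of the 4 deposited ratios, and it is the effect of CLA over LA if the authors had already turned the swapped arrays. The sign-changing part is the mean after arrays 3 and 4 are turned, and it is CLA over LA if the values are Cy5 over Cy3; each is the dye effect where the other is the diet effect. Both rest on the ratio of arrays 1 and 2 being CLA over LA, and the opposite would turn every sign. A feature bright in only 1 dye would change sign with the dye orientation in ratios already turned to the diet. A feature bright in only 1 diet's pools would do so in ratios of Cy5 over Cy3. Only ratios were used here, so these cases cannot be told apart. Of the features lying over 10-fold from 0 on all 4 arrays, 477 of 477 were negative on arrays 1 and 2 and positive on arrays 3 and 4. Of these, 470 carried no gene symbol, and their median deposited ratio was -2.62 on array 1 and 2.57 on array 4. These features do not settle the direction, and both parts are given throughout.

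Each array gave 22393 features with no missing values, and array medians lay between -0.0023 and 0.0010 on the deposited scale. Across features with 1 symbol, which are not independent replicates, Pearson r was 0.36 between arrays 1 and 2 and 0.73 between arrays 3 and 4. It ran from -0.63 to -0.20 between arrays of opposite orientation. Signal over background is unknown here, so no probe could be set aside as dim, and the number of arrays limits the precision. Of hepatocyte markers, 6 of 8 were measured, among them Alb, but ratios show no level, so that the labelled tissue could not be checked from them. Pancreas acinar markers stood apart on array 4, with a list mean of 2.04 log2 over 6 of 8 genes, against -0.07 to -0.04 on arrays 1 to 3. Fewer cells of a type and less RNA per cell cannot be told apart in such bulk RNA.

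Hepcidin swung with the dye orientation. The Hamp log2 ratio was 0.74 on array 1, 0.36 on array 2, -1.24 on array 3 and -1.22 on array 4. It stood above 0 on both arrays with CLA in Cy5 and below 0 on both with CLA in Cy3, and the orientations did not overlap; 21.3% of all genes shared that pattern of signs. On arrays 3 and 4 only 1.08% and 0.830% of genes lay lower, while on arrays 1 and 2 98.5% and 84.2% lay lower. The gap between arrays 3 and 4 was 0.0254 and that between arrays 1 and 2 was 0.389, against median gaps over all genes of 0.213 and 0.215.

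In the sign-keeping part Hamp was at -0.34 ± 0.10 (SE, n = 4 arrays), with a 95% interval from -0.60 to -0.08 and an adjusted p of 0.352 in limma across all 16504 genes. The SE and interval rest on gaps between arrays of the same dye orientation and leave out the swing between orientations. As deposited, the 4 values had an SD of 1.04. With one coefficient only, where that swing counts as spread, the limma adjusted p was 0.999. The sign-keeping part is CLA over LA only if the ratios had already been turned to the diet. In it the hormone gene did not pass, at an unadjusted limma p of 0.0206. No gene did: 0 of 16504 passed (0%), with 2234 (13.5%) at an unadjusted p under 0.05. In the sign-changing part Hamp rose by 0.89 ± 0.10 (interval 0.63 to 1.15, adjusted p = 0.0216), which is 1.85-fold higher with CLA if the values are Cy5 over Cy3. There 2821 genes (17.1%) passed, 1216 of them higher (7.37%), and 99.8% of all genes had a lower value than Hamp, against 5.74% in the sign-keeping part. Its call was lost without array 3 (adjusted p = 0.116) and without array 4 (adjusted p = 0.163), where no gene passed and the value stayed at 0.88 and 0.90.

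**Figure D1:**
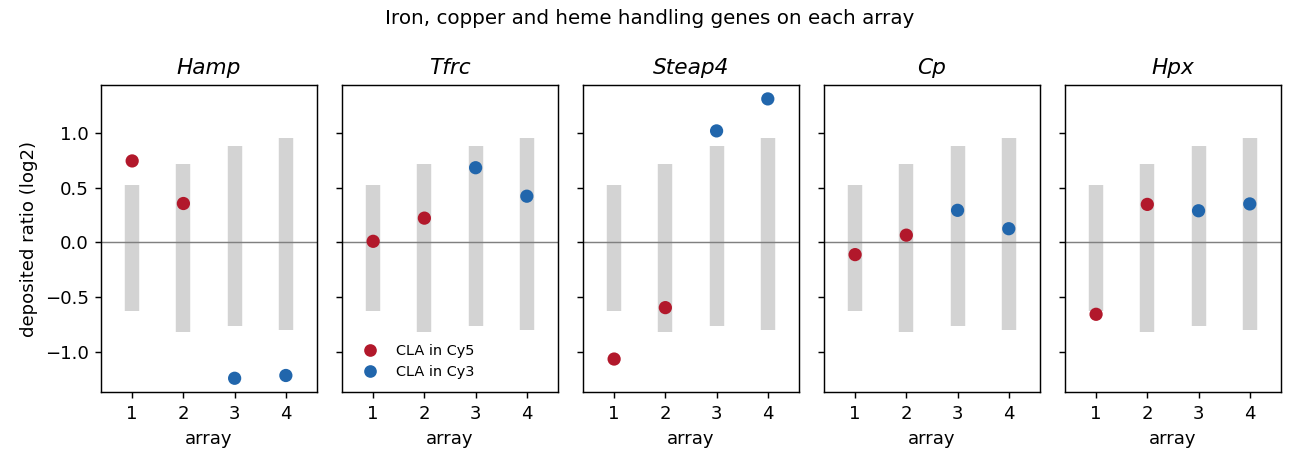
Deposited ratio (log2, vertical axis) of Hamp, Tfrc, Steap4, Cp and Hpx on arrays 1 to 4 (horizontal axis), red with CLA in Cy5 and blue with CLA in Cy3; grey bars span the 5th to the 95th percentile of 16504 genes. Hamp lies above 0 on arrays 1 and 2 and near -1.2 on arrays 3 and 4, Steap4 runs the opposite way, and Tfrc lies at or above 0 on all 4.

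Steap4 ran opposite to Hamp on all 4 arrays. The metalloreductase gene had log2 ratios of -1.07, -0.60, 1.02 and 1.31 on arrays 1 to 4. Both arrays with CLA in Cy5 were below 0 and both with CLA in Cy3 above it, with no overlap, a pattern of signs shared by 21.6% of all genes. In the sign-changing part Steap4 fell by 1.00 (SE 0.12, n = 4, interval -1.31 to -0.69, adjusted p = 0.0234 in limma), 2.00-fold lower with CLA if the values are Cy5 over Cy3. Lower calls made up 9.72% of all genes. The sign-keeping part was 0.17 ± 0.12 (interval -0.14 to 0.48, adjusted p = 0.531), and it turned to -0.027 when arrays were scaled to one spread. As for Hamp, the sign-changing call was lost without array 3 (adjusted p = 0.116) and without array 4 (adjusted p = 0.163), at values of -1.07 and -0.92.

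Tfrc was the one gene of the set above 0 on all 4 arrays as deposited. Its log2 ratios were 0.0099, 0.22, 0.68 and 0.42 on arrays 1 to 4, the lowest barely above 0 and the highest on array 3. A positive sign on all 4 arrays was seen for 4.72% of all genes. The iron uptake receptor was at 0.33 ± 0.09 in the sign-keeping part (interval 0.09 to 0.58), 1.26-fold, with an unadjusted p of 0.0178 and an adjusted p of 0.352 in limma, so it did not pass. In the sign-changing part it was at -0.22 ± 0.09 (adjusted p = 0.160). Hamp was negative in the sign-keeping part while Tfrc was positive, and neither passed there over all genes.

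Ceruloplasmin had the smallest spread of the 5 genes over the arrays as deposited, with an SD of 0.167 against 0.287 to 1.17 for the others. Cp had log2 ratios of -0.11, 0.07, 0.29 and 0.12 on arrays 1 to 4, all within the middle of the range of genes (35.3% to 74.0% of genes lay lower). Its sign-keeping part was 0.09 ± 0.09 (interval -0.13 to 0.32, limma adjusted p = 0.621) and its sign-changing part -0.12 ± 0.09 (interval -0.34 to 0.11, adjusted p = 0.367). The intervals reach no further than 0.34 from 0 on the log2 scale, which does not show that Cp did not differ.

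Hpx was split by array 1. The heme carrier gene had log2 ratios of -0.66, 0.35, 0.29 and 0.35 on arrays 1 to 4, with array 1 alone below 0. Arrays 1 and 2, which share a dye orientation, differed by 1.00, a gap larger than that of 93.4% of genes. The sign-keeping part was 0.08 ± 0.18 (limma adjusted p = 0.847) and the sign-changing part -0.24 ± 0.18 (adjusted p = 0.383). Without array 1 these became 0.33 (adjusted p = 0.217) and 0.013 (adjusted p = 0.940), and without array 2 they became -0.17 (adjusted p = 0.775) and -0.49 (adjusted p = 0.0669).

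**Figure D2:**
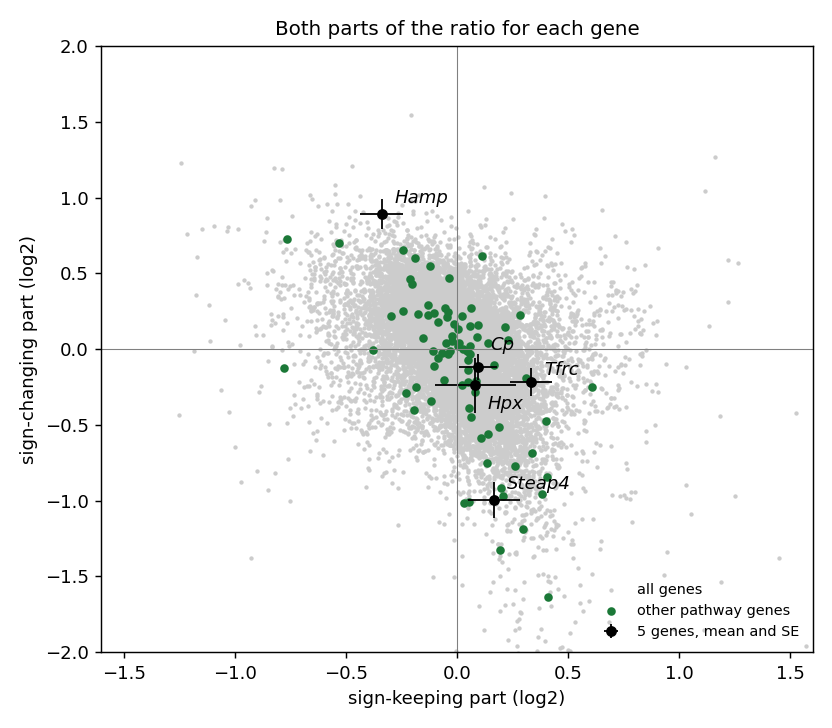
Sign-keeping part (horizontal axis, log2) against sign-changing part (vertical axis, log2) for all genes (grey), pathway genes (green) and the 5 genes (black, bars are SE, n = 4 arrays). Hamp lies at -0.34 and 0.89, Steap4 at 0.17 and as far below 0 on the vertical axis, and Tfrc, Cp and Hpx lie between Hamp and Steap4 on the vertical axis, with Tfrc furthest right at 0.33; 63 genes lie outside the axes.

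Hepcidin was then set against each of the other genes within the array. Hamp minus Steap4 was 1.81, 0.95, -2.26 and -2.53 on arrays 1 to 4, the widest of the 4 comparisons. Hamp minus Tfrc was 0.73, 0.13, -1.92 and -1.64, Hamp minus Cp was 0.86, 0.29, -1.53 and -1.34, and Hamp minus Hpx was 1.40, 0.0081, -1.53 and -1.57. Each difference was above 0 on arrays 1 and 2 and below 0 on arrays 3 and 4, though for Hpx by only 0.0081 on array 2. These 4 comparisons share the Hamp values and are not independent of each other.

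Once arrays 3 and 4 were turned, all 4 differences were positive on 4 of 4 arrays. Hamp minus Steap4 was 1.89 ± 0.69 (SD, n = 4), Hamp minus Hpx 1.13 ± 0.75, Hamp minus Tfrc 1.11 ± 0.82 and Hamp minus Cp 1.00 ± 0.56. In an exact permutation test that flipped the signs of the arrays, both directions counted, 2 of 16 sign patterns reached each observed mean, which is the smallest p that 4 arrays can give, and adjustment over the 4 pairs left it as it was. In the sign-keeping part the differences were smaller than their spread, at -0.67 ± 1.31 against Tfrc, -0.51 ± 2.21 against Steap4, -0.43 ± 1.19 against Cp and -0.42 ± 1.42 against Hpx (SD, n = 4), with adjusted exact p between 0.667 and 0.75. That against Steap4 turned to 0.08 without array 3 and to 0.17 without array 4.

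**Figure D3:**
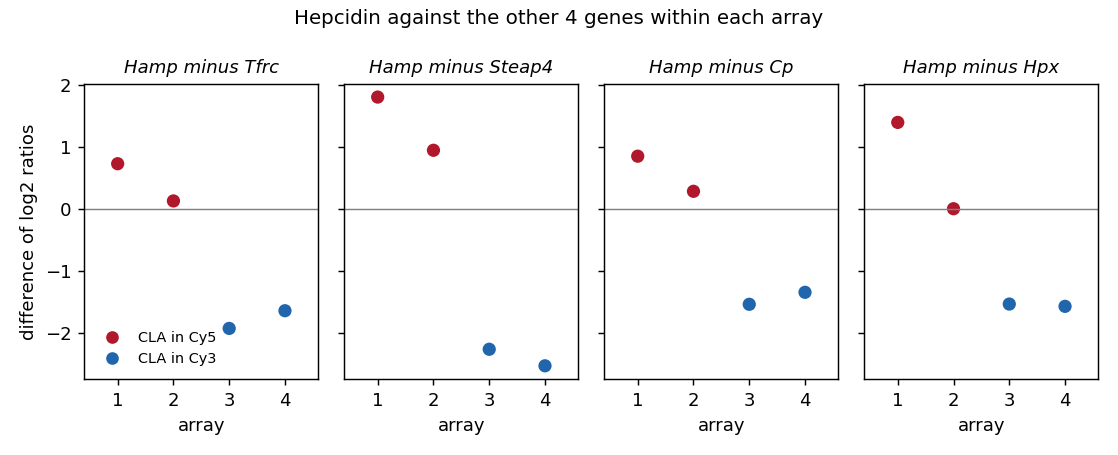
Difference of log2 ratios, Hamp minus Tfrc, Steap4, Cp or Hpx (vertical axis), on arrays 1 to 4 (horizontal axis), red with CLA in Cy5 and blue with CLA in Cy3. All 4 differences are above 0 on array 1 and below -1.3 on arrays 3 and 4.

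The genes most like Hamp, by Euclidean distance over the 4 log2 ratios among all genes, were Kcna2 (distance 0.131), Kcnn2 (0.165), Scnn1a (0.226), Nxt2 (0.227) and Lca5 (0.244). The first 3 encode ion channel subunits, and their sign-changing parts ran from 0.78 for Scnn1a to 0.86 for Kcna2. The genes most like Steap4 were Coq5 (0.132), Ecm1 (0.218), Mbl2 (0.254), Plp2 (0.257) and Prelid2 (0.259). Coq5 acts in ubiquinone synthesis, and Mbl2 is a mannose-binding lectin of plasma. From Hamp, the other 4 genes lay at 2.23 for Cp, 2.60 for Hpx, 2.63 for Tfrc and 3.96 for Steap4.

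The wider pathways were described through 8 lists, which together held 85 measured genes. In the sign-keeping part none of the 85 passed, and their median was 0.029 against 0.00059 over all genes. An unadjusted limma p under 0.05 was seen for 13 of the 85, and for 2234 of all 16504 genes (13.5%). In the sign-changing part 23 passed (27.1%, against 17.1% of all genes), 7 higher and 16 lower, where higher and lower mean with CLA if the values are Cy5 over Cy3. Without the 5 genes named at the outset, 21 of 80 passed (26.2%). The lists were chosen with earlier results in view, so the share is a description.

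Of the genes that carry iron signals to hepcidin through BMP and SMAD, 16 of 18 were measured and 2 passed in the sign-changing part (12.5%, against 17.1% of all genes), a share below that of all genes; in the sign-keeping part 0 passed. Hjv, the BMP co-receptor hemojuvelin, was at -0.92 (SE 0.09, adjusted p = 0.0186), with ratios of -0.81, -0.63, 0.99 and 1.24 on arrays 1 to 4. Hfe, the hemochromatosis gene, was at 0.46 (SE 0.08, adjusted p = 0.0319). Bmp6, the ligand known for iron sensing, was at -0.25 ± 0.17 and Tfr2, the second transferrin receptor, at 0.037 ± 0.085, and neither passed. The smallest p values of the sign-keeping part belonged to Acvr1, a BMP receptor, at -0.38 ± 0.13 (adjusted p = 0.356) and Hfe at -0.21 ± 0.08 (adjusted p = 0.360).

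Of the interleukin-6 and STAT3 list, all 9 genes were measured, and in the sign-changing part 4 passed as lower and 1 as higher, against 9.72% lower and 7.37% higher of all genes; in the sign-keeping part 0 passed. Cebpa, a liver transcription factor, was at -0.96 (SE 0.10, adjusted p = 0.0209), the kinase gene Jak2 was at -0.77 (SE 0.12), the receptor gene Il6ra was at -0.56 (SE 0.09) and its partner Il6st was at -0.44 (SE 0.09). Il6 itself was at 0.73 (SE 0.12, adjusted p = 0.0313). Its deposited ratios were 0.14, -0.22, -1.29 and -1.70 on arrays 1 to 4, and in the sign-keeping part it was at -0.77 ± 0.12 (adjusted p = 0.352), the lowest unadjusted p of the 85 genes at 0.00159. Socs3, a feedback inhibitor in this route, was at -0.23 ± 0.10 and -0.29 ± 0.10 in the sign-keeping and sign-changing parts and passed in neither. Erfe, encoding erythroferrone, an erythroid hormone known to lower hepcidin, was at 0.61 in the sign-changing part (SE 0.14, adjusted p = 0.0492).

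Of 10 measured genes of iron uptake and reduction, 1 passed as higher and 2 as lower in the sign-changing part (30.0%, against 17.1% of all genes), with Steap4 among those lower. Trf, which encodes transferrin, was at -0.97 (SE 0.10, adjusted p = 0.0190), with ratios of -0.64, -0.88, 1.03 and 1.33 on arrays 1 to 4, close to those of Steap4. Cybrd1, an iron reductase gene known from the gut, was at 0.70 (SE 0.13, adjusted p = 0.0355). Of 11 genes of iron storage, export and sensing, 2 passed (18.2%), both lower. Ftl1, the ferritin light chain, was at -0.84 (SE 0.10, adjusted p = 0.0234), and Ncoa4, the receptor for ferritin breakdown, was at -0.51 (SE 0.12, adjusted p = 0.0494). Slc40a1, the gene of the exporter ferroportin on which hepcidin acts, was at 0.47 ± 0.12 (adjusted p = 0.0590) and did not pass. For the sign-keeping part, Ftl1 was at 0.41 ± 0.10, Cybrd1 at -0.53 ± 0.13 and the iron regulatory protein gene Ireb2 at -0.24 ± 0.09, with adjusted p from 0.352 to 0.361, while Slc40a1 was at -0.037 ± 0.12.

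**Figure D4:**
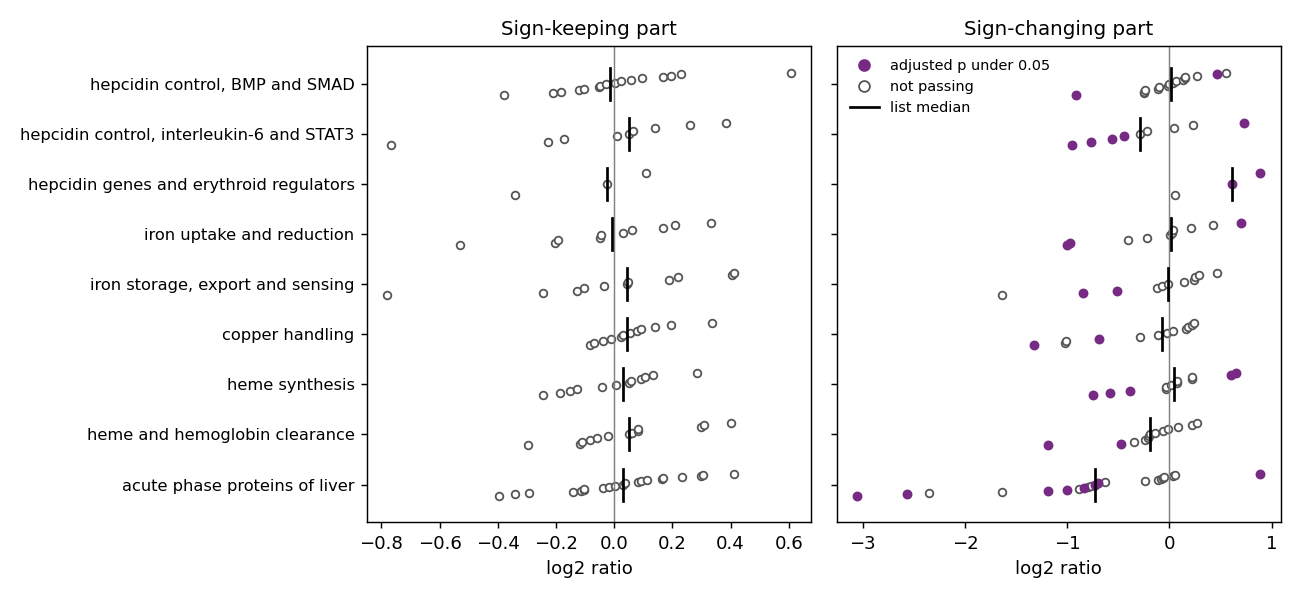
Log2 ratio (horizontal axis) of each measured gene of 8 pathway lists and the acute phase list (rows), with the sign-keeping part on the left and the sign-changing part on the right; filled points passed at an adjusted p under 0.05 and black bars are list medians. No point is filled on the left, and on the right the filled points lie on both sides of 0.

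Of 12 measured copper handling genes, 2 passed in the sign-changing part (16.7%, against 17.1% of all genes), both lower, and 0 in the sign-keeping part. Ccs, the copper chaperone of superoxide dismutase, was at -1.32 in the sign-changing part (SE 0.08, adjusted p = 0.00564), and Cox17, which feeds copper to cytochrome oxidase, was at -0.69 (SE 0.10, adjusted p = 0.0269). Atox1, a further copper chaperone, was at 0.039 ± 0.077 (adjusted p = 0.738), and Cp did not pass. Their sign-keeping values did not pass, with Ccs at 0.19 ± 0.08 and Cox17 at 0.34 ± 0.10. The metallothionein genes Mt1 and Mt2, which bind copper and zinc, are named after their values were seen. Mt1 was at -1.75, -0.22, 0.29 and 1.81 on arrays 1 to 4, and Mt2 at -2.19, 0.28, -0.0036 and 2.13, far from 0 on arrays 1 and 4 and near it on arrays 2 and 3, and neither passed in either part.

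Of 12 measured heme synthesis genes, 5 passed in the sign-changing part (41.7%, against 17.1% of all genes) and 0 in the sign-keeping part. Fech, the ferrochelatase that inserts iron, and Cpox, coproporphyrinogen oxidase, were at 0.65 (SE 0.09) and 0.60 (SE 0.11). Slc25a38, a mitochondrial glycine carrier, was at -0.75 (SE 0.08), Alad, aminolevulinate dehydratase, was at -0.58 (SE 0.11) and Ppox, protoporphyrinogen oxidase, was at -0.39 (SE 0.08). Of the 13 genes of heme and hemoglobin clearance, 2 passed in the sign-changing part (15.4%) and 0 in the sign-keeping part. Hp, the hemoglobin-binding haptoglobin, was at -1.19 (SE 0.18, adjusted p = 0.0282), and the biliverdin reductase gene Blvrb was at -0.48 (SE 0.09, adjusted p = 0.0381). Of the sign-keeping values, Blvrb was at 0.40 ± 0.09, Bach1, a heme-sensing repressor, at 0.31 ± 0.10, and Fech at -0.24 ± 0.09, none passing. Hmox1, the inducible heme oxygenase, was at -0.11 ± 0.15 and -0.013 ± 0.15 in the sign-keeping and sign-changing parts.

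Hepcidin was the one acute phase gene called higher in the sign-changing part. Of the 21 measured genes of the acute phase list, 8 passed there (38.1%, against 17.1% of all genes), 7 of them lower (9.72% of all genes), with a list median of -0.73 against 0.019 over all genes. Without Hamp, Steap4, Cp and Hpx, 6 of 17 passed, all 6 lower. Saa1, serum amyloid A, was at -4.29, -0.91, 2.73 and 2.32 on arrays 1 to 4, so that arrays 1 and 2 differed far more for it than for Hamp. Saa4 was at -0.73 (SE 0.09, adjusted p = 0.0237) and Itih4, a plasma protease inhibitor heavy chain, was at -0.83 (SE 0.10, adjusted p = 0.0223). Lcn2, an iron-siderophore binding protein, was at -2.80, 0.35, 2.56 and 1.53 on arrays 1 to 4 and did not pass (adjusted p = 0.101). None of the 21 passed in the sign-keeping part, and their median was 0.030. The acute phase list mean was -1.24, -0.31, 0.92 and 0.71 on arrays 1 to 4. Its part in the Hamp and Steap4 values was not tested.

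Markers of other cells were set beside these genes. Of 53 marker genes measured, 6 passed in the sign-changing part (11.3%, against 17.1% of all genes) and 0 in the sign-keeping part. Adipocyte markers (4 of 5 measured) had list means of -0.50, -0.09, 0.44 and 0.41 on arrays 1 to 4, with the signs of Steap4 and of the acute phase list and opposite to those of Hamp. Of these, Retn, which encodes resistin, was at -0.65 in the sign-changing part (SE 0.12, adjusted p = 0.0361). Adipoq, which encodes adiponectin, was at -1.50, -0.16, 0.71 and 0.34 on arrays 1 to 4 and did not pass (adjusted p = 0.112). Lep had the signs of Steap4 and was at -0.17 ± 0.08 in the sign-changing part. Plin1, at 0.086, -0.036, 0.033 and -0.18 on arrays 1 to 4, did not share those signs. Neither Lep nor Plin1 passed. Erythroid markers (6 of 10 measured) had list means of -0.21, 0.37, 0.12 and -0.28, and macrophage and Kupffer cell markers (6 of 9) had 0.01, -0.31, -0.16 and 0.49. The other called markers were Gata1 (erythroid), Marco (macrophage), Stab1 (sinusoidal endothelium) and Apob (hepatocyte), all lower, and Tat (hepatocyte), higher. Their lists did not move as 1: in the sign-changing part 5 erythroid markers were positive and 1, Gata1, negative. The counts were 2 positive and 4 negative for macrophage markers, 3 and 4 for sinusoidal endothelium, and 3 and 3 for hepatocyte markers. The part of any of these markers in the values of Hamp and Steap4 was not tested. The pancreas markers, high on array 4 only, passed in neither part, and their part in the values of array 4 was not tested. Without array 4, Hamp was at 0.90 and Steap4 at -0.92 in the sign-changing part, and neither passed (adjusted p = 0.163 for both).

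**Figure D5:**
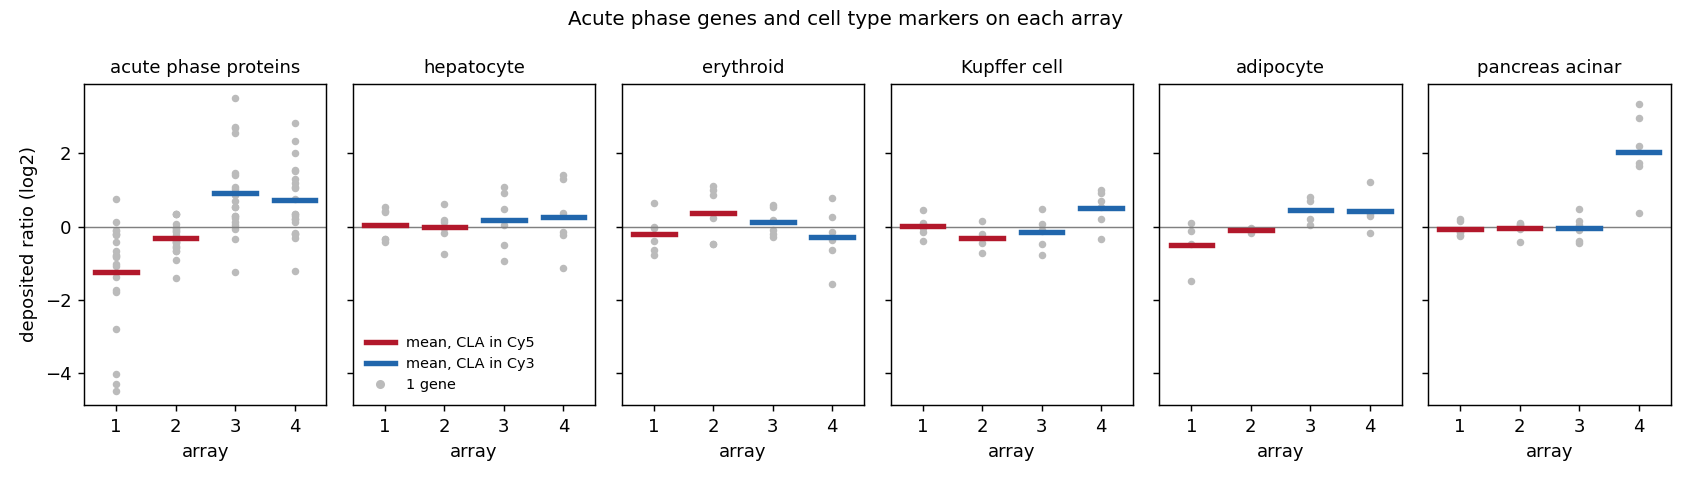
Deposited ratio (log2, vertical axis) on arrays 1 to 4 (horizontal axis) for the acute phase list and 5 lists of cell type markers; grey points are genes and coloured bars list means, red with CLA in Cy5 and blue with CLA in Cy3. The acute phase mean runs from -1.24 on array 1 to 0.92 on array 3, and the pancreas acinar mean reaches 2.04 on array 4.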

How the data were processed

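The authors deposited 1 log ratio per feature and array, taken here as log10 from its range; which base, direction, normalization and software they used is not given in the sources used here. Values were multiplied by 3.32 to log2. Genes were named from GEO's platform annotation, with 18218 features of 1 symbol, 16 of several and 4159 of none; the last 2 kinds were left out. Gene numbers of 18175 features matched RefSeq and changed 0 symbols. Probes of a gene were averaged (1193 genes had more than 1), which gave 16504 genes. The limma package 3.58.1 (R 4.3.3; lmFit, then eBayes) was applied to every gene over 4 arrays, with a sign-keeping and a sign-changing coefficient (2 residual and 2.67 prior degrees of freedom), and p-values were adjusted over all genes with the Benjamini-Hochberg procedure and called at 0.05. The fit was tested on simulated data. Promoter windows were RefSeq's, and motifs were searched on both strands. Genes named are the 5 members, 8 fixed genes, and the 5 nearest to Hamp and to Steap4. The genes of each list that passed are also named (up to 4 a part, or the 2 with the smallest p). Ppox, Il6st, Atox1 and the marker genes Retn, Adipoq, Lep, Plin1, Gata1, Marco, Stab1, Apob and Tat were named after their values were seen. The members and lists were chosen with earlier results of these data known. Alternatives were other scalings, summaries, moderation, models, a position trend, probes and leaving out each array. Figures used matplotlib 3.10.9.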

Additional observations from a re-analysis of the deposited data

Results flagged for a closer look

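Among 100 sets of 4 ratios tested with Dixon's criterion, 3 had 1 array apart from the other 3, where chance alone would give about 1 in 20. Hpx, as deposited, stood apart on array 1 at -0.66 (gap over range 0.938). With arrays 3 and 4 turned, Hp stood apart on array 2 at -0.41 (0.883) and Hamp minus Hpx on array 2 at 0.0081 (0.893).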

How the results depend on the processing

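The direction and log base of the ratios are not settled, and 4 arrays leave 2 residual degrees of freedom. The count of genes called in the sign-changing part, 2821 in all, was 1202 with one coefficient only and 0 to 739 when an array was left out. In the sign-keeping part it was 0 in every setting run. Leaving out an array gave 0.79 to 0.99 for Hamp and -1.12 to -0.88 for Steap4 in the sign-changing part, with calls lost without array 3 or 4. For Hpx it gave -0.17 to 0.33 in the sign-keeping and -0.49 to 0.013 in the sign-changing part, and for Hamp minus Steap4 in the sign-keeping part -1.28 to 0.17, so the signs of these 3 turned. With the trend over feature number removed, the sign-keeping part of Hpx was -0.036, and with arrays scaled to one spread that of Steap4 was -0.027; the causes were not tested. Of 120 values of the 5 genes under alternatives other than the log base, 116 kept their sign and 4 turned. Hamp and Steap4 were still called in 20 of 24 in the sign-changing part. With 1 probe for each of these genes, the probe settings could not change their values. Robust moderation, one coefficient only and leaving out the genes with the largest values could not change them either. The 116 therefore include values that could not turn. The Hamp differences could not pass at 4 arrays under any setting. An alternative that left out the 5 genes was added after seeing the data. With it, the sign-keeping median of the list of hepcidin genes and erythroid regulators turned from -0.024 to 0.043. That list had only 3 measured genes, and 2 without the 5 genes. The arrays could not be paired with each other, because all 4 form 1 group of ratios. The only paired comparison was that of Hamp with the other genes within an array.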
